A study of Canis lupus familiaris with 2 samples.

Results

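Astrocytes of the retina migrate in from the optic nerve head and lie along the axons of ganglion cells and the vessels of the inner surface, whereas Müller glia arise from retinal progenitors and span the whole tissue. Both kinds of glia clear transmitter, buffer potassium and touch blood vessels, and both contain vimentin. Astrocytes are classically told apart by the intermediate filament protein GFAP, the calcium-binding protein S100B and the optic stalk transcription factor PAX2, and Müller glia by the retinaldehyde-binding protein RLBP1 and by glutamine synthetase, encoded by GLUL.

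Single-cell RNA-seq of neuroretina from 2 normal dogs held a small population of cells, selected on WFDC2, FGG and genes found with them, in which GFAP was higher than in Müller glia. N350 and N354 were wild-type males of 40 weeks, each with 1 library made by 3' counting of unique molecular identifiers (UMIs) in trypsin-dissociated retinal punches. Members were selected on raw UMIs as cells with at least 3 of 6 genes detected, WFDC2 or FGG among them. The 6 gate genes were WFDC2, a secreted protein of the WAP protease inhibitor family, FGG, the gamma chain of fibrinogen, CAPS, the calcium-binding protein calcyphosine, RAMP1, a subunit of the receptor for calcitonin gene-related peptide, CDO1, the cysteine dioxygenase that starts taurine synthesis, and FBLN1, the matrix protein fibulin 1. Of 13282 cells with 200 or more detected genes, 334 were members, 262 of 8895 in N350 (2.95%) and 72 of 4387 in N354 (1.64%). They were compared with 1587 and 608 cells that passed a Müller glia gate (4 or more of RLBP1, GLUL, RGR, SFRP2, SLC14A1 and DAPL1) and were no members, and with the 7046 and 3707 other cells, of which 5649 and 3110 were rods by their own gate. The libraries held 24030707 and 9711202 UMIs in all. Members had a median of 5247.5 UMIs in N350 and 4194 in N354, Müller glia 3713 and 5566, and rods 1090 and 1021. The libraries shared 6 barcodes, and 0 of these belonged to members. The gene table of N350 carried RefSeq names and that of N354 Ensembl names, so a difference between the dogs cannot be told apart from one between annotations.

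Levels are UMIs per 10000 UMIs of a class, with 95% Poisson intervals that cover counting error only. The gate genes are given as a description, because they chose the cells. WFDC2 stood at 26.9 in members of N350 and 45.7 in N354, against 0.207 and 0.0326 in Müller glia and 0.434 and 0.104 in rods. FGG stood at 7.21 and 5.67 in members, CAPS at 8.89 and 12.7, RAMP1 at 9.32 and 14.0, CDO1 at 4.48 and 13.1 and FBLN1 at 2.64 and 3.01. FGA and FGB, which encode the other chains of fibrinogen, had 0 UMIs in the members of both dogs. CALCRL, the receptor that RAMP1 joins, had 6 UMIs in members of N350 and 0 in N354. SLC6A6, the taurine transporter, stood at 0.457 and 0.723 in members, against 4.47 and 15.7 in rods. The 12 and 10 measured genes of taurine and sulfur amino acid metabolism summed to 8.88 and 15.4 in members, CDO1 included.

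Of the 3 classical astrocyte markers, GFAP set the members apart in both dogs. GFAP stood at 2.10 (1.89 to 2.33) in members of N350 and 5.73 (4.96 to 6.58) in N354. It stood at 0.0237 and 0.0136 in Müller glia, and at 0.0715 and 0.0306 in rods, which should lack it. Members thus exceeded Müller glia 88.5-fold in N350 (57.1 to 145) and 422-fold in N354 (178 to 1313). A GFAP UMI was found in 98 of 262 members of N350 (37.4%) and 43 of 72 of N354 (59.7%), against 0.850% and 0.354% of rods. At a common depth of 1000 UMIs the shares were 17.6% and 37.7% of members, 0.383% and 0.130% of Müller glia, and 0.469% and 0.288% of rods. The classes were also compared within dogs by edgeR's quasi-likelihood test on UMI sums, with 2 residual degrees of freedom and Benjamini-Hochberg adjustment over all genes tested. There GFAP was higher in members than in Müller glia by 6.86 on the log2 scale (SE 0.59, adjusted p = 0.00139) and than in other cells by 6.39 (SE 0.54, adjusted p = 0.000317). Because the gate genes were picked from cells of these libraries, genes that accompany them had to differ. Each call sets a difference between classes against how far such differences varied between the 2 dogs, and is not independent evidence. The average difference between the dogs was taken out by fitting the dog as a block.

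PAX2 was rare but was seen in members alone. It had 11 UMIs in 11 members of N350 and 3 UMIs in 3 members of N354, and 0 UMIs in all Müller glia and all other cells of both dogs. The level in N350 members was 0.0613, at least 18.1-fold higher than in Müller glia and at least 27.3-fold higher than in other cells, with 0 UMIs set to 3. No fold is given for N354, where the members held only 3 UMIs. PAX2 was below the filter of 30 UMIs. With no filter beyond 1 UMI it entered the edgeR fit through its UMIs in members alone. Its call there sets members against counts of 0 and adds nothing to the counts above.

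The test of S100B between members and Müller glia did not pass. In N350 it had 46 UMIs in members, a level of 0.256, and 128 in Müller glia, a level of 0.145, with a ratio of 1.77 (1.24 to 2.5). In N354 it had 0 UMIs in members, which allows a level of up to 0.0868, 1 in Müller glia and 0 in other cells. The fitted difference from Müller glia was 0.30 (log2, SE 0.49, adjusted p = 0.747 by edgeR), and that from other cells 4.87 (SE 0.58, adjusted p = 0.000933), the latter resting on N350 alone.

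ID4, an inhibitor of bHLH transcription factors found in astrocytes, was picked with the gate genes but was not used by the gate. It stood at 19.4 in members of N350 and 5.76 in N354, against 3.29 and 1.17 in Müller glia, 0.635 and 0.0484 in rods. The ratios to Müller glia were 5.89 (5.61 to 6.19) and 4.91 (4.13 to 5.82). The fitted difference of 1.85 (log2, SE 0.56) missed the threshold (adjusted p = 0.0697 by edgeR), whereas that from other cells was 4.63 (SE 0.64, adjusted p = 0.00162). Of the genes checked against the astrocyte label, GFAP thus passed the main test against Müller glia, and S100B and ID4 did not pass it. ID4 passed in some of the alternative fits and missed in others. PAX2 had too few UMIs for the main test.

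**Figure D1:**
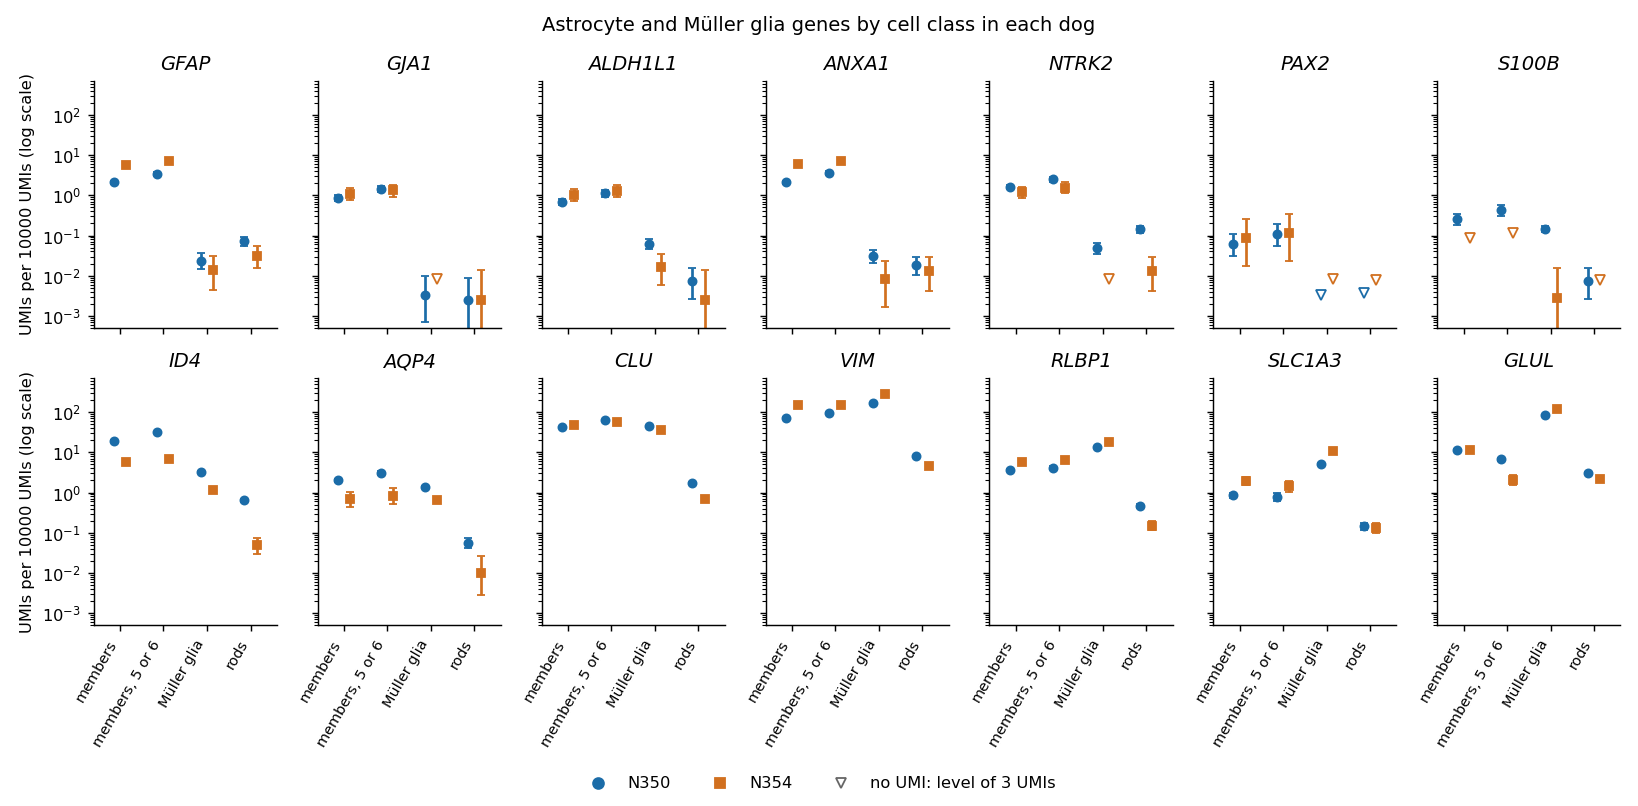
Levels of 14 genes in UMIs per 10000 UMIs (log scale) in members, in members with 5 or 6 gate genes, in Müller glia and in rods, with circles for N350, squares for N354 and 95% Poisson intervals. Open triangles mark classes with no UMI, drawn at the level of 3 UMIs. GFAP, GJA1, ALDH1L1, ANXA1 and NTRK2 are higher in members than in Müller glia in both dogs, and GLUL and SLC1A3 lower.

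Members with few gate genes differed from those with many. The number of cells fell from 382 with 2 gate genes to 33 with 4 in N350 and from 126 to 9 in N354, then was higher again, with 57 and 94 cells holding 5 and 6 gate genes in N350 and 21 and 38 in N354. Just outside the threshold lay the 186 and 25 cells with 2 gate genes, WFDC2 or FGG among them, and just inside the 78 and 4 cells with 3. WFDC2 stood at 2.46 (2.20 to 2.73) and 1.75 (1.19 to 2.48) outside and at 4.14 (3.66 to 4.66) and 1.92 (0.706 to 4.18) inside, as a gate gene whose level the split itself affects. GLUL stood at 18.5 and 62.1 outside and 19.4 and 62.2 inside. GFAP stood at 0.0997 and 0.113 with 2 gate genes, 0.212 and 0 with 3, and 1.55 and 2.90 with 4. It was 3.72 and 7.75 with 5, and 3.31 and 6.56 with 6. ANXA1, ID4 and CLU, the secreted chaperone clusterin, were highest in the same cells, with CLU at 57.8 and 57.3 for 5 gate genes and 66.1 and 57.5 for 6.

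NEFL and GLUL ran the other way. NEFL, the light neurofilament chain of ganglion cells, stood at 25.1 in N350 cells with 3 gate genes, 5.28 with 4, 0 with 5 and 0.0875 with 6. In N354 it stood at 3.52, 0.387, 0 and 0. These levels rested on few cells, since NEFL was found in 24 of the 262 members of N350 and 1 cell held 945 of its 1737 UMIs. GLUL dropped from 62.2 with 3 gate genes to 1.15 with 6 in N354, and from 19.4 to 5.25 in N350. RLBP1 did not follow GLUL, with 3.18 and 4.17 for 3 gate genes, 4.57 and 6.62 for 5, and 3.95 and 6.22 for 6. VIM stood at 42.3 and 94.5 with 3 gate genes and at 97.5 and 158.3 with 6. Of the cells with 3 gate genes, 41.0% in N350 also passed the Müller gate, against 23.4% of those with 6, and in N354 50% (2 of 4) against 7.89%. In all, 74 of 262 members of N350 (28.2%) and 11 of 72 of N354 (15.3%) passed both gates. The 9 and 4 members among the 4% of cells with the highest Scrublet doublet scores stayed in. Where the calls changed, the comparisons below are also given for the 151 and 59 members with 5 or 6 gate genes, a threshold set after these values had been seen. In these cells GFAP stood at 3.44 and 6.97 and ID4 at 31.3 and 6.85, and the fitted difference of ID4 from Müller glia was 2.28 (log2, SE 0.50, adjusted p = 0.0137 by edgeR).

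**Figure D2:**
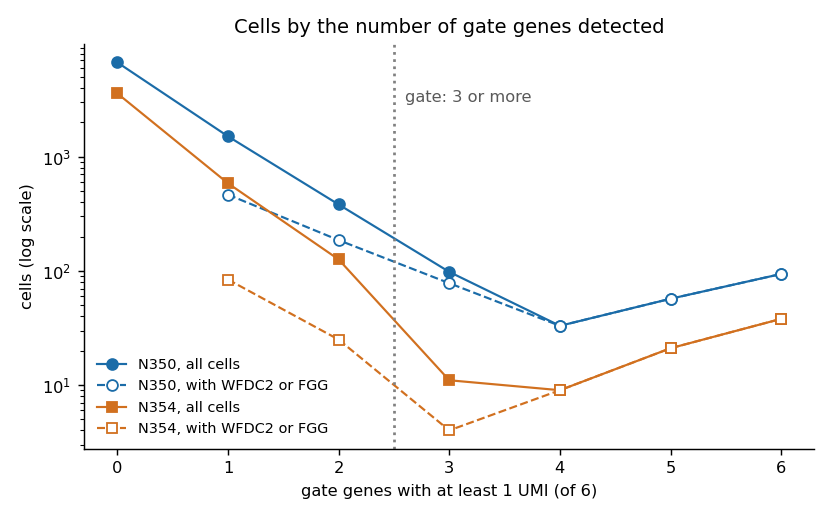
Number of cells (log scale) by the number of gate genes with at least 1 UMI, for all cells (filled) and for cells with WFDC2 or FGG (open), in N350 (circles) and N354 (squares). Both dogs have their fewest cells at 4 gate genes or, with WFDC2 or FGG required in N354, at 3.

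**Figure D3:**
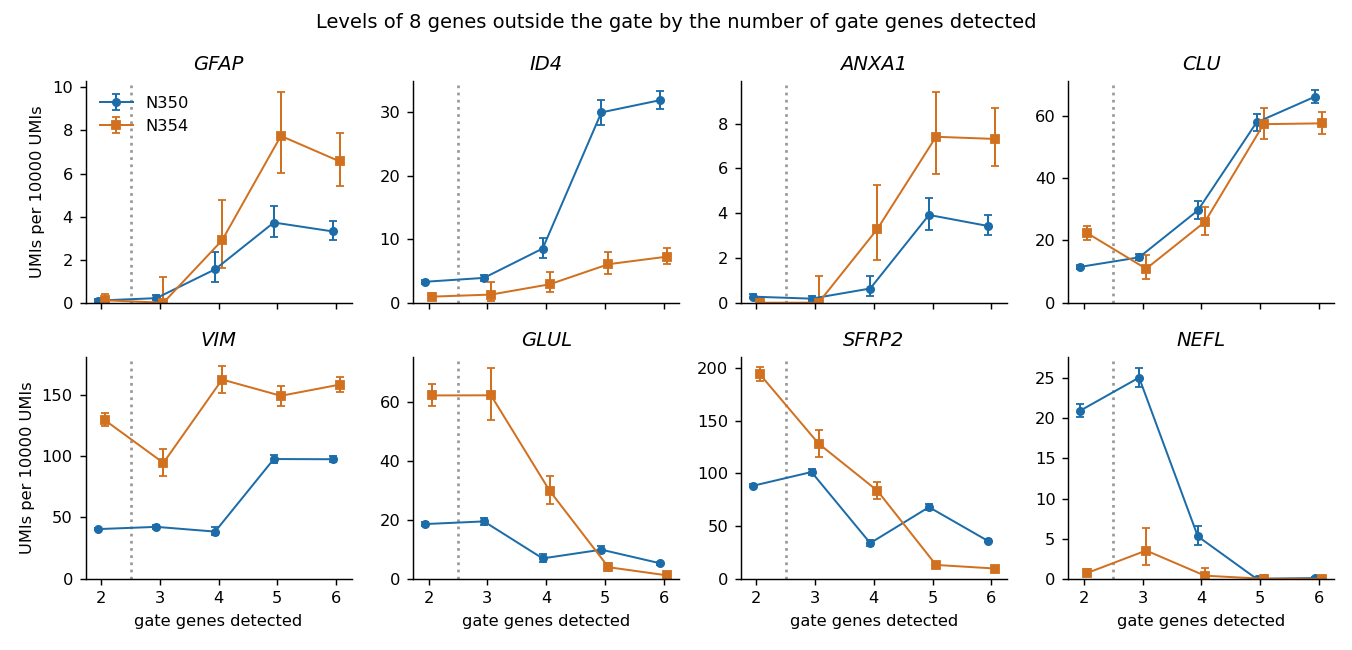
Levels of 8 genes outside the gate, in UMIs per 10000 UMIs with 95% Poisson intervals, in cells with 2 to 6 gate genes including WFDC2 or FGG (N350 circles, N354 squares). GFAP, ID4, ANXA1 and CLU are high with 5 and 6 gate genes, where GLUL and NEFL are low. SFRP2 is low there in N354, at 13.1 and 9.73. In N350 it shows no steady decline, at 101.2, 33.8, 67.9 and 36.0 with 3, 4, 5 and 6 gate genes.

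Against Müller glia, 864 of 11517 genes tested (7.5%) were higher in members and 801 (6.95%) lower at an adjusted p under 0.05, gate genes left out. With 5 or 6 gate genes the counts were 807 of 11489 (7.02%) and 1069 (9.3%). These are the shares over all genes to set beside the counts against Müller glia in each list below. The higher calls of both gates shared 531 genes, 61.5% of the first and 65.8% of the second, and the lower calls 694, 86.6% and 64.9%. TMM scaling set the median of all genes to -0.02 on the log2 scale, where library sizes alone gave 0.53. All fitted differences are relative to that shift, whereas levels and their ratios carry no TMM scaling. Without TMM 85.6% of the calls were higher in members, against 51.9% with it. In edgeR 0 genes were called in either direction without the dog as a block, where 507 were higher and 437 lower at an unadjusted p under 0.05. DESeq2 with the dog in the model called 743 higher and 697 lower.

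The 12 genes furthest above Müller glia by the naming rule included several receptors and regulators. NRK, a kinase of the germinal centre kinase family, had 146 UMIs in 84 members of N350 and 40 in 24 members of N354, levels of 0.814 and 1.16. It had 0 UMIs in Müller glia of both dogs, so that it was at least 240.0-fold higher in N350 and at least 142-fold higher in N354. LMO3, a LIM-only transcription cofactor, stood at 1.1 and 1.59 in 105 and 37 members, with 1 and 0 UMIs in Müller glia. FBP2, a fructose bisphosphatase of gluconeogenesis, stood at 0.552 and 0.926, and MOXD1, a relative of dopamine beta-hydroxylase, at 0.223 and 0.694. Among receptors, ERBB4, which binds neuregulins, stood at 0.346 and 0.434, RET, which serves ligands of the GDNF family, at 0.123 and 1.1, and the adhesion receptor ADGRG1 at 0.652 and 1.88. All 3 had at most 3 UMIs in the Müller glia of either dog. EYA2, NRN1 and HS3ST3A1 completed this group with GJA1, but HS3ST3A1, a heparan sulfate sulfotransferase, had 182 UMIs in N350 and 1 in N354. TH, the tyrosine hydroxylase of dopaminergic amacrine cells, also met the rule, with 283 and 63 UMIs, of which 53.7% and 61.9% lay in 1 cell of each dog. It was not called with 5 or 6 gate genes, where it had 3 and 0 UMIs.

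Astrocyte genes ran both ways. Of 15 astrocyte identity genes tested, 6 were higher than in Müller glia, 3 lower and 6 not called, with a median of 1.85 (log2) against -0.02 over all genes. Beside GFAP, the gap junction protein GJA1 (connexin 43) stood at 0.864 and 1.1 in members and at 0.00339 and 0 in Müller glia, a difference of 8.14 (SE 0.83). ALDH1L1, the folate enzyme used as a pan-astrocyte marker, stood at 0.675 and 1.01, against 0.0611 and 0.0163 (3.71, SE 0.52). ANXA1, the phospholipid-binding annexin A1, stood at 2.10 and 6.08, against 0.0305 and 0.00815 (6.86, SE 0.79). FGFR3 and the protease inhibitor SERPINE2 were also higher, by 3.61 and 1.86. The 3 lower genes were the glutamate transporters SLC1A3, by -3.08, and SLC1A2, by -1.68, and the growth factor receptor PDGFRA, at 0.379 and 0.0289 in members and 3.90 and 1.53 in Müller glia. The water channel AQP4 did not pass the test, with 2.0 and 0.694 in members and 1.39 and 0.646 in Müller glia. ID4 and NDRG2 joined the higher genes with 5 or 6 gate genes, 8 of 15, and the 3 lower genes were still called. GJB6, connexin 30, had 0 UMIs in the members of both dogs.

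Müller genes were detected in members, some of them at lower levels. The 6 genes of the Müller gate describe the selection: GLUL stood at 11.4 and 11.7 in members against 82.8 and 120.1 in Müller glia, and SFRP2 at 65.3 and 32.3 against 398.8 and 399.9. Of the other 8 Müller genes tested, 4 were lower in members and 0 higher, with a median of -1.42. VIM stood at 72.5 and 150.8, against 166.5 and 288.4 (-1.58, SE 0.34). The lipid carrier APOE (-2.24) and the secreted DKK3 and SPON1 were lower too, but VIM and DKK3 were not called without TMM. CRYAB was lower as well with 5 or 6 gate genes. CLU, KCNJ10, CRYAB and CA2 did not pass the test. CLU stood at 42.8 and 48.5 in members and at 44.5 and 36.7 in Müller glia, and KCNJ10, the inward rectifier of glial potassium buffering, at 1.68 and 0.260 against 1.15 and 0.111. RLBP1 remained at 3.62 and 5.84, against 0.458 and 0.150 in rods. Against other cells the same 8 genes were all higher in members, also with 5 or 6 gate genes. Over all genes 16.9% were higher than in other cells, and 18.6% with 5 or 6 gate genes.

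**Figure D4:**
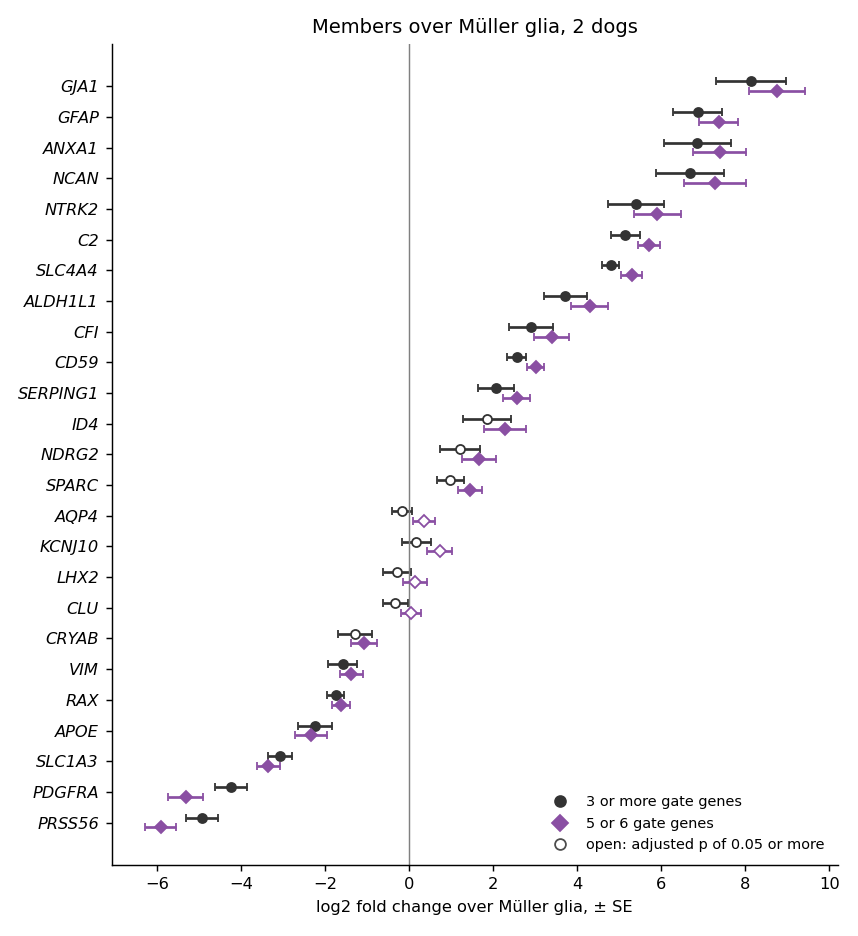
Log2 fold change over Müller glia with its SE for 25 genes, for all members (circles) and for members with 5 or 6 gate genes (diamonds), filled where the adjusted p was under 0.05 by edgeR. The genes run from GJA1, GFAP and ANXA1, higher in members, through AQP4, KCNJ10, LHX2 and CLU near 0, to SLC1A3, PDGFRA and PRSS56, lower in members.

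Of 6 genes of glutamate uptake and recycling tested, 4 were lower in members than in Müller glia and 0 higher, with a median of -1.91. SLC1A3, the main glial glutamate transporter of the retina, stood at 0.853 and 1.97 in members and at 5.25 and 10.7 in Müller glia. SLC38A3, a glutamine transporter, stood at 0.362 and 0.0289 against 1.17 and 0.206, and the GABA transporter SLC6A11 at 0.340 and 0.0579 against 0.883 and 0.391. Among members with 5 or 6 gate genes 5 of 6 were lower and SLC38A5 was higher. Of 9 genes of potassium, water and urea transport 2 were higher and 0 lower. SLC4A4, the sodium bicarbonate cotransporter, stood at 2.26 and 5.38 in members against 0.0554 and 0.136 (4.80, SE 0.21), and KCNJ16 was higher by 5.51. Of 4 gap junction genes GJA1 and GJC1 were higher, the latter at 0.134 and 0.174 against 0.00678 and 0.00543.

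Genes of complement and its regulators were higher in members in 5 of 11 tested and lower in 0, with a median of 2.0. C2, a protease of the classical pathway, stood at 1.90 and 4.08 in members and 0.0531 and 0.0516 in Müller glia (5.15, SE 0.34). CFI, which inactivates complement fragments, stood at 3.40 and 8.71 against 0.493 and 0.581, CD59, which blocks the membrane attack complex, at 5.93 and 1.07 against 0.816 and 0.0978, and SERPING1, the C1 inhibitor, at 2.77 and 1.53 against 0.643 and 0.160. C7 was also called but had 75 UMIs in N350 and 0 in N354, and it was lost with DESeq2. C3 had 0 and 2 UMIs in members. The same 5 genes were called with 5 or 6 gate genes.

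Of 10 genes of retinoid handling tested, RDH10, RBP4 and CYP26A1 were lower in members, 1 was higher and 6 were not called, with a median of -0.58. ALDH1A1 and ALDH1A3 were lower too with 5 or 6 gate genes. RBP4, the secreted retinol carrier, stood at 65.6 and 36.3 in members against 401.8 and 469.6 in Müller glia. Among intermediate filament genes GFAP and LMNA were higher and VIM, NES and SYNM lower, 5 of 6 tested. NES and VIM were no longer called without TMM, and NES not with DESeq2. Members with 5 or 6 gate genes added PLEC to the higher genes and lost NES.

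Of 18 matrix genes tested, 2 were higher and 4 lower in members, with a median of 0.23. Over all genes 7.5% were higher and 6.95% lower. NCAN, the brain proteoglycan neurocan, stood at 0.407 and 0.550 against 0.00452 and 0 (6.69, SE 0.81), and TNC, tenascin C, at 0.256 and 0.868 against 0.0158 and 0.00543 (4.55, SE 0.60). The lower genes were FBLN2 and EFEMP1, which are fibulins like FBLN1, with COL9A1 and LAMA1, the last of these not called without TMM. EFEMP1 stood at 2.01 and 0.955 in members and 6.72 and 1.64 in Müller glia. SPARC, a matricellular protein, was called too with 5 or 6 gate genes, at 23.4 and 4.15 against 5.42 and 1.13, and so was FN1, with 11 UMIs in these members of N350 and 0 in N354. Growth factor receptors also ran both ways, 2 of 9 higher and 2 lower, with FGFR1 and LIFR higher too for 5 or 6 gate genes. NTRK2, the receptor of BDNF, stood at 1.63 and 1.22 against 0.0475 and 0 (5.40, SE 0.66), whereas EGFR and PDGFRA were lower. VEGFA, not called with the whole gate, was higher with 5 or 6 gate genes, at 2.71 and 11.6 against 0.998 and 2.12.

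Transcription factors of glia had 2 of 13 tested higher and 4 lower, with a median of -0.29, where 7.5% of all genes were higher and 6.95% lower. ZIC2, a zinc finger factor of the anterior neural tube, stood at 0.914 and 0.0868 in members against 0.110 and 0.00543, and MEIS2 was higher by 1.31. The retinal factors RAX (-1.75) and RORB (-1.90) were among the lower genes, as was NFIA (-0.83), which was lost without TMM and with DESeq2. LHX2, needed for the Müller glial state, was not called, with 2.89 and 4.95 in members against 2.82 and 3.69. With 5 or 6 gate genes SIX6, a factor of the eye field, was higher, at 5.08 and 2.40 against 1.93 and 0.497, and MEIS2 and NFIA were not called. SOX2 and SOX9 were named in the table of N350 only. There SOX9 stood at 0.758 in members and 0.383 in Müller glia, a ratio of 1.98 (1.61 to 2.42). SOX2 stood at 3.68 and 3.63, a ratio of 1.01 (0.930 to 1.1). Neither was tested, and these ratios lack the TMM scaling, whose factors in N350 were 1.15 for members and 0.799 for Müller glia.

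Pathway lists with few calls were as follows, where 7.5% of all genes were higher than in Müller glia and 6.95% lower. In the ID and BMP list 1 of 13 genes was higher (BMP2) and 2 lower (BMP7 and the antagonist CHRDL1), and with 5 or 6 gate genes ID3 and ID4 were higher too. In the Notch list DLL4, an endothelial and glial ligand, stood at 2.15 and 1.59 against 0.251 and 0.0136 and HES4 was lower, 2 of 8 tested. Among WNT antagonists WIF1 was higher, with 27 and 2 UMIs in members and 1 and 0 in Müller glia, and SFRP1 and DKK3 were lower, 3 of 7 tested, DKK3 not without TMM. Of 8 lipid genes ABCA1 and SCD were higher and APOE lower, and APOA1 and PLTP joined the higher genes with 5 or 6 gate genes. Of 9 reactive astrocyte genes GFAP and OSMR were higher and SERPINA3 and VIM lower, and TIMP1 was higher with 5 or 6 gate genes. SERPINA3, an acute-phase inhibitor, had 1 and 0 UMIs in members against 100 and 9 in Müller glia. With the whole gate 0 genes were called among 8 WAP domain and protease inhibitor genes, 6 S100 and EF-hand genes and 2 genes of the CGRP receptor list by edgeR, where 3, 2 and 0 had an unadjusted p under 0.05. The stricter gate called TIMP1 higher in the first list and S100A1 and S100A16 in the second. Of 4 metallothionein and iron genes FTL and CP were lower, FTL not without TMM. Of 5 coagulation genes SERPINE2 was higher and F3 and PROS1 lower, with TFPI higher too in members with 5 or 6 gate genes. Of 8 sulfur amino acid genes SLC7A11 was lower, and GOT1 as well with the stricter gate. MT3, named in the table of N354 only, stood at 29.1 in members and 5.0 in Müller glia, a ratio of 5.82 (5.39 to 6.29). S100A6, named in N350 only, stood at 6.61 and 1.33, a ratio of 4.96 (4.57 to 5.38). Both ratios are without TMM, and neither gene was tested.

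Of the 12 genes furthest below Müller glia, 6 had 0 UMIs in the members of both dogs. HPGDS, a prostaglandin D synthase, had 130 and 44 UMIs in Müller glia, levels of 0.147 and 0.120, so that members were at least 8.79-fold lower in N350 and at least 1.38-fold lower in N354. ADGRA2, an adhesion receptor, was at least 4.19-fold and at least 2.35-fold lower. ADAMTS12, TPC3, FOXI3 and VIPR2 were the other 4, and TPC3 was not called with 5 or 6 gate genes. PRSS56, a serine protease of Müller glia linked to eye size, was better covered, with 22 and 0 UMIs in members, 0.123 and 0, and 2051 and 412 in Müller glia, 2.32 and 1.12 (-4.94, SE 0.39). PCK1, ECEL1, TRABD2B, ADAMTS6 and SERPINA3 had at most 2 UMIs in the members of either dog.

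Against the other cells, which are mostly rods, 1949 of 11523 genes (16.9%) were higher in members and 1813 (15.7%) lower. With 5 or 6 gate genes the counts were 2133 of 11495 (18.6%) and 2570 (22.4%). VCAM1, an adhesion molecule of astrocytes and endothelium, led the higher genes and stood at 1.15 and 3.73 in members, 0.00525 and 0 in other cells and 0.0430 and 0.100 in Müller glia. It was found in 95 and 50 members. TLR2, an innate immune receptor, stood at 0.530 and 1.01 against 0.00375 and 0.00177, CLDN1, a tight junction protein, at 0.541 and 0.926 against 0.00450 and 0.00177, and KRT18, a keratin of simple epithelia, at 0.541 and 0.405 against 0.00300 and 0.00177. ATP1A4, FBP2, LMO3 and HS3ST3A1 were in this group too. DLX1, a homeobox factor of the forebrain and retina, stood at 0.725 and 0.0868 and GPR37L1, an astrocyte receptor, at 1.2 and 0.0579, both resting mostly on N350. The 10 genes furthest below other cells had 0 UMIs in the members of both dogs. They included the microglial genes C1QA and C1QB and the lymphocyte genes CD37 and IL7R, which had 231, 173, 128 and 147 UMIs in other cells of N350. Of the 15 astrocyte identity genes 14 were higher than in other cells (13 with 5 or 6 gate genes) and SLC1A2 lower, with a median of 5.09 against -0.11 over all genes.

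Markers of other cell types were present in the members to different degrees. Of 13 amacrine and ganglion cell genes tested, 11 were higher in members than in Müller glia, with a median of 3.05, and 4 of these 11 were lost with DESeq2. Their summed level over the 14 and 13 listed genes with a name in each table was 23.7 in N350, led by NEFL, for which 1 cell held 945 of 1737 UMIs as 1 did 512 of 948 for NEFM, and 2.66 in N354, led by GAD2, against 1.54 and 0.212 in Müller glia. With 5 or 6 gate genes it was 1.45 and 1.22, 1 gene was higher (RBPMS) and NEFL was lower. Rod genes summed to 32.5 and 22.4 in members, 43.6 and 58.2 in Müller glia and 282.6 and 437.8 in other cells, and 5 of 8 tested were lower than in Müller glia, 4 of which were lost without TMM, and 8 of 8 with 5 or 6 gate genes. GNGT1, a subunit of rod transducin, led the list in N354. Cone genes summed to 13 and 0.116 in members, led by PDE6H in both dogs, and to 8.18 and 8.56 in Müller glia. The sum was thus higher in members in N350 and lower in N354. Of 8 cone genes tested, 0 were called by edgeR, with 1 (PDE6C) at an unadjusted p under 0.05. PDE6C was called lower with 5 or 6 gate genes. Bipolar genes summed to 1.66 and 1.19, with 1 of 8 tested lower than in Müller glia. Horizontal cell genes summed to 4.95 and 0.0868, led by CALB1, with ONECUT2 higher than in Müller glia among 4 tested but not with DESeq2 or with 5 or 6 gate genes, and to 0.0908 and 0 with 5 or 6 gate genes.

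Microglial genes were nearly absent, with 8 and 1 UMIs in members over 8 and 7 listed genes, C1QA, C1QB and CX3CR1 at 0 in both dogs, and CSF1R was lower than in Müller glia among 5 tested, though not with 5 or 6 gate genes. Oligodendrocyte genes summed to 0.831 and 0.781, led by CNP, against 0.567 and 0.416 in Müller glia, with OLIG2 at 0 in both dogs. MBP was higher than in Müller glia, at 0.100 and 0.289 against 0.00226 and 0.00272, and of the 2 other genes tested 1 was lower, though not with 5 or 6 gate genes. Endothelial and pericyte genes summed to 3.79 and 2.89, led by RGS5 in N350 and KDR in N354, against 4.54 and 10.8 in Müller glia. Of 8 tested, PECAM1, CLDN5, RGS5 and ACTA2 were higher in members and KDR and FLT1 lower, and CLDN5 and ACTA2 were lost with DESeq2. In members of N350 all 199 UMIs of RGS5 lay in 1 cell, as did 128 of the 129 of CLDN5 and all 10 of ACTA2 for their genes, and these genes had 0 UMIs in members of N354, as had CDH5. Of 5 fibroblast and meningeal genes COL1A2 and IGFBP7 were higher and PDGFRA lower, IGFBP7 at 2.72 and 0.897 against 0.208 and 0.0109, and LUM was at 0 in both dogs. Their sums were 3.44 and 1.62, led by IGFBP7, and FN1 was higher too with 5 or 6 gate genes, on the 11 UMIs of N350 alone. Of the pigment and ciliary epithelium genes RPE65, TYR and LRAT were at 0 in the members of both dogs. Against Müller glia 819 genes were higher and 1403 lower without members that passed both gates, and 818 and 750 without the cells of the highest Scrublet scores. The part of each other cell type in the results above was not tested.

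RNA quality differed between the classes. The median mitochondrial share was 4.31% and 5.94% of UMIs in members, 7.33% and 10.3% in Müller glia and 5.38% and 6.37% in rods, and 12 of 13 mitochondrial genes were lower in members than in Müller glia, 10 of which were lost without TMM. Immediate early and stress genes summed to 261.3 and 70.0 in members, 286.5 and 57.2 in Müller glia and 32.1 and 17.1 in rods, with FOS at 89.9 and 36.1 in members. Against Müller glia ATF3 and DUSP1 were lower, both lost without TMM and with 5 or 6 gate genes, where JUND was higher. Against other cells 11 of 12 were higher in members, where 16.9% of all genes were. In cells with under 5% mitochondrial UMIs 658 genes were higher and 458 lower than in Müller glia, and GFAP was higher by 6.38 (log2). That limit left 152 members and 292 Müller glia in N350 but only 25 and 25 in N354. The part of the stress genes in the other results was not tested.

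Among the members with 5 or 6 gate genes, those with and without a GFAP UMI were set side by side. In N350 79 had GFAP and 72 did not, with medians of 6361 and 5859.5 UMIs, and in N354 39 and 20, with medians of 4258 and 3961. ID4 stood at 33.5 and 28.7 with and without GFAP in N350 and at 7.55 and 5.58 in N354. WFDC2 stood at 47.2 and 38.2 in N350 and at 54.6 and 57.2 in N354, and CLU at 65.1 and 61.8 and at 59.8 and 53.1. CDO1 was higher with GFAP in both dogs, 8.97 against 5.75 and 19.8 against 10.2, and VIM lower, 91.4 against 104.8 and 139.7 against 183.4. No test was made across these cells, which share their animal. From cell to cell the levels of WFDC2 in members ran from 2.43 at the 10th percentile to 66.3 at the 90th in N350, with a median of 28.9, and from 16.4 to 85.0 in N354, with a median of 48.4.

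Some genes of the members differed widely between the dogs. APOA1, the main protein of high-density lipoprotein, stood at 9.32 in members of N350 and 0.0579 in N354, with 0.564 and 0.109 in Müller glia, and was not called with the gate but was with 5 or 6 gate genes. HS3ST3A1, DLX1, GPR37L1, C7 and S100B were likewise present in N350 and at 0 to 3 UMIs in N354. MT2A, a metallothionein, differed less, at 45.4 and 54.6, as did CLU, at 42.8 and 48.5. With 1 animal and 1 annotation for each library these differences were not tested.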

How the data were processed

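The authors aligned the reads with Cell Ranger against a canFam6 genome and deposited raw UMI counts per gene and barcode, 1 table per dog. The Cell Ranger version, 6.0.2, was read for N350 only. The annotations are not given in the sources used here. N350 has 34981 gene names and N354 19930, of which 15236 are shared and entered the tests. Barcodes with 200 or more detected genes were kept, with no mitochondrial limit and no doublets removed. The members and gene lists were chosen with earlier results of these data known. UMIs were summed per dog and class (6 sums) and fitted with edgeR 4.0.16 (R 4.3.3; TMM, quasi-likelihood, Benjamini-Hochberg) for genes with 30 or more UMIs, with the dog as a block, since all classes of a dog come from 1 animal (correlation of deviations across 11529 genes 0.715 to 0.847). The 2 dogs are the replicates, and counts leave out gate genes. DESeq2 1.42.0, other filters, gates and depths were alternatives. In data simulated for members against Müller glia the test recovered 3 of 200 genes changed 2-fold (11318 genes run), with 0 false calls. Of 200 changed 4-fold (11322 genes run) it recovered 167, with 7 false calls. The changed genes were drawn from the better covered ones, so recovery at low counts was not measured. Simulated members otherwise carried the Müller profile of their dog, without the shift that TMM removed in the real data. Genes named outside the lists had the 12 highest and 12 lowest fold changes against Müller glia (10 and 10 against other cells) among called genes with a symbol, 50 or more UMIs in the higher class and 1 direction in both dogs. Levels carry exact Poisson intervals, shares exact binomial ones, and a count of 0 allows 3; all cover counting error only. Some items are not reported here.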

Additional observations from a re-analysis of the deposited data

How the results depend on the processing

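Without the replicate block (the dog) edgeR called 0 genes in each direction against Müller glia and against other cells, where 507, 437, 1123 and 844 had an unadjusted p under 0.05 (higher and lower than Müller glia, higher and lower than other cells), and DESeq2 with the dog called 743, 697, 1811 and 1272. In edgeR without the block GFAP (7.11 against Müller glia, 6.64 against other cells, log2), S100B (4.84 against other cells) and ID4 (4.05 against other cells) also lost their calls. Against Müller glia, library sizes alone gave 2282 genes higher and 383 lower, no filter beyond 1 UMI gave 1480 lower, leaving out members that pass the Müller gate 1403 lower, and a mitochondrial share under 5% 458 lower. ID4 against Müller glia passed with DESeq2 (1.85), without TMM (2.43), with no filter (1.65), with 4 or more gate genes (2.18), with 5 or 6 (2.28, chosen after seeing the data), under 5% mitochondrial UMIs (2.34) and in cells of 2000 or more UMIs (1.83). With 1 dog left there is no test, and the GFAP ratios of this step are slightly smaller than those from the levels given above. Genes past a 2-fold ratio in the dog left then numbered 2966 to 4399 higher and 611 to 928 lower than Müller glia, and 2066 to 3404 higher and 2078 to 2410 lower than other cells, and the log2 ratios were 6.44 to 8.59 for GFAP and 2.30 to 2.56 for ID4 against Müller glia. PAX2 entered only the fit with no filter beyond 1 UMI, and through the members alone, so its call there adds nothing to its counts. Depth limits the genes at 0 in N354, which has 72 members. Under 5% mitochondrial UMIs only 25 members and 25 Müller glia were left in N354.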
